A study of Drosophila melanogaster with 2 samples.

Results

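The weak regions described here were places where chromatin precipitated with eGFP-tagged fd59A gave a summit in both replicates, yet the authors did not keep them as peaks. They were selected on measured values. A region of the pooled list qualified if it overlapped no peak kept after the irreproducible discovery rate (IDR) step. It also needed a summit within 100 bp in the lists of both replicates, and its pooled summit had to lie outside every coding sequence (CDS) of the Ensembl gene models. Of the 29208 regions called on the pooled reads, 22917 overlapped no IDR peak, 7000 of those had a summit in both replicates, and 6635 remained after 365 with a CDS summit were left out. These 6635 are called recurrent weak regions. They were set beside the 13889 other weak regions and the 5303 IDR peaks whose summits also lay outside CDS.

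The samples were 2 biological replicates, numbered 2 and 3, of whole prepupae from 1 transgenic Drosophila melanogaster line. That line stably expressed fd59A with eGFP, a green fluorescent protein, at its C-terminal end, and an antibody against GFP was used for chromatin immunoprecipitation and sequencing (ChIP-seq). Males and females were pooled, and the age is labelled 24 day, a value whose starting point the labels do not give and whose meaning for prepupae is uncertain. Both replicates form 1 group, so no condition was compared. The file descriptions state that regions were called against a control, but no control library is among the samples, and signal not due to the tagged protein cannot be told apart. Tissues were mixed in each library, so a region bound in few cells and a region bound weakly in many cells cannot be told apart either. Read totals are not in the lists and depth is unknown. Replicate 2 had 28127 listed regions and replicate 3 had 30000.

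The fd59A protein belongs to the forkhead family, whose members bind DNA through a winged-helix domain, typically at sites built around the core TAAACA. In flies fd59A is known from neurons that make octopamine, an insect counterpart of noradrenaline. In ChIP-seq, strong peaks often lie at promoters and other open chromatin, and lists of weak regions can hold sites used in few cells as well as background that recurs between libraries. The IDR step compares how regions rank in the replicates, and a list of peaks is kept at a threshold on estimated irreproducibility. Outside CDS, the kept peaks here had a pooled signal of 106 or more, and all weak regions had 106 or less. The kept list held 5327 peaks, and pooled ranks of the recurrent weak regions began at 5328. Every contrast with IDR peaks is thus also a contrast across a cut in pooled signal.

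Sequences around the summits are printed to show what a recurrent weak region looks like at the top, in the middle and at the bottom of the pooled signal. Regions were taken in order of pooled rank, passing over windows that touch an annotated exon, and not every chromosome arm is shown, so the first 3 are not the first 3 of the list. Each line gives 101 bases centred on the pooled summit, on the plus strand of RefSeq Release 6 (build dm6), 5′ to 3′. Capitals mark matches on either strand to the forkhead core TAAACA, the GATA-factor word GATAAG or the homeodomain word TAATTA.
Strong, Svil intron, chr3L:2426534-2426634: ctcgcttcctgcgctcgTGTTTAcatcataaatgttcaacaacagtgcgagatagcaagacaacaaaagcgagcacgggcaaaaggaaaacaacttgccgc
Strong, tna intron, chr3L:10868117-10868217: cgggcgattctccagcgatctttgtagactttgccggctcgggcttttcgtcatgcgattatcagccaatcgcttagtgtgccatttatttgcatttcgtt
Strong, CG45263 intron, chr3R:8467487-8467587: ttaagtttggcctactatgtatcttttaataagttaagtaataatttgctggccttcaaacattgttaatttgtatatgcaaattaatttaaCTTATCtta
Median, app promoter, chr3L:12223781-12223881: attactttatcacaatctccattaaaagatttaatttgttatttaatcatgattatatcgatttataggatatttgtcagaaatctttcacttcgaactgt
Median, between genes near CG6168, chr3L:11316934-11317034: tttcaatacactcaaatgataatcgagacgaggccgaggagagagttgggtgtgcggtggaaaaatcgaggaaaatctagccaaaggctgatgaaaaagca
Median, side-III intron, chr3R:5926222-5926322: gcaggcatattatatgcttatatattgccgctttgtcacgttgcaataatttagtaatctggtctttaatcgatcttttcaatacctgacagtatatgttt
Weak, CG44422 intron, chrX:11255522-11255622: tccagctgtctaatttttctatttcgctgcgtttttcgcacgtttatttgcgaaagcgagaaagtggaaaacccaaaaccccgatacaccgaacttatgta
Weak, fz intron, chr3L:14347251-14347351: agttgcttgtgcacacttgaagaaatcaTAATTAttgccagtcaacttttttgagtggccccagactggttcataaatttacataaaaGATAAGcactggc
Weak, CG34384 intron, chr3R:7817005-7817105: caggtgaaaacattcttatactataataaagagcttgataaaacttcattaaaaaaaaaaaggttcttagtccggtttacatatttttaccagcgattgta
The window within a Svil intron carried a forkhead core match on the minus strand and had 47.5% GC. The one in tna had no match to any of the 3 motifs and had 48.5% GC. In the CG45263 intron, 23.8% GC and a GATA match were found. None of the 3 median windows held a match, whereas the weak window in fz held both a GATA and a homeodomain match. Over all recurrent weak regions, 1376 (20.7%) held at least 1 of these 3 motifs, against 25.5% of IDR peaks and 17.8% of the regions' own flanks. For comparison, these are the same windows at the strongest pair of IDR peaks that met the exon criterion.
IDR peak, CG14100 promoter, chr3L:19590568-19590668: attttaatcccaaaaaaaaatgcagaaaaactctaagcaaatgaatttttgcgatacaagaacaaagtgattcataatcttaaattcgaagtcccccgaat
IDR peak, ush intron, chr2L:481040-481140: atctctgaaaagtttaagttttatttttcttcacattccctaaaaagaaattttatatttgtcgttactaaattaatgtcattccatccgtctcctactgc
Both IDR windows were AT-rich, at 29.7% and 28.7% GC, and neither held a match.

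Recurrent weak regions had a pooled signal of 29.2 to 106 in the authors' units, with a median of 57.8 and quartiles at 46.2 and 76.0. The IDR peaks began at 106, where the weak regions ended, and had a median of 193. Other weak regions had a median of 36.2, so the rule had selected the stronger part of the weak list. Pooled ranks ran from 5328 to 29204 with a median of 10373, and the deposited −log10 q had a median of 0.638. All but 6 of the 6635 regions had the same width of 424 bp (6629 regions).

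In the replicate lists the matched regions had a signal of 18.5 to 107 in replicate 2, with a median of 27.8, and of 14.0 to 98.0 in replicate 3, with a median of 27.4. The 2 ranges overlapped almost fully. Signal was higher in replicate 2 at 3642 regions (54.9%), and the ratio of replicate 2 to replicate 3 had a median of 1.06 with an 80% range of 0.581 to 1.72. Within 2-fold of each other lay 90.3% of the pairs, while 305 regions were over 2-fold higher in replicate 2 and 339 in replicate 3. These shares depend in part on how low each list reaches and on the limit of 106 in pooled signal. They are no measure of how well the replicates agree. Across the 6635 regions the signals of the 2 lists had a Spearman rho of 0.376, a description of points that share their selection by pooled signal. Few would have been among the 5327 strongest regions of a single replicate, the number of IDR peaks before the CDS filter: 405 (6.10%) in replicate 2, 230 (3.47%) in replicate 3 and 3 in both.

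**Figure D1:**
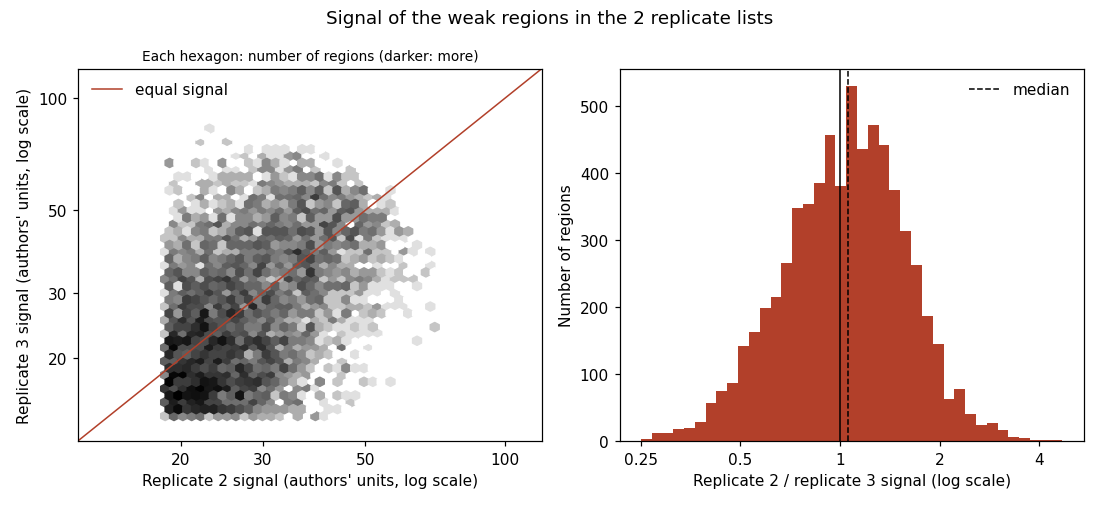
Left, the signal of the 6635 recurrent weak regions in the list of replicate 2 (x axis) and replicate 3 (y axis), in the authors' units on log scales, with darker hexagons holding more regions on a log colour scale. Right, the number of regions by ratio of replicate 2 to replicate 3 signal on a log scale. The dashed line is the median of 1.06. Most regions lie within 2-fold, in a set whose signals are limited by its selection.

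Replicate summits lay close to the pooled ones, as the rule required. The median distance was 19.0 bp in replicate 2 and 13.0 bp in replicate 3, and 82.1% and 82.8% lay within 50 bp. At the edge of the rule, among weak regions matched in replicate 3, 174 had a replicate 2 summit over 90 to 100 bp away and 163 had one over 100 to 110 bp away. Among those matched in replicate 2, the counts were 171 and 137 for replicate 3.

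The 2 replicates differed in what their weak regions were. Of weak regions matched in both, 5.21% had a summit in CDS before those were removed, against 19.1% of the 6072 matched only in replicate 2, 5.88% of the 6666 matched only in replicate 3 and 15.0% of the 3179 matched in neither. Outside CDS, the mean GC content of the 101-bp summit windows was 40.5% in recurrent weak regions, 44.0% in those matched only in replicate 2, 41.2% in those matched only in replicate 3 and 43.0% in those matched in neither. The weak part of replicate 2 was richer in GC and in CDS throughout: its regions ranked 5328 to 15000 averaged 43.5% GC with 13.4% of summits in CDS, and those of replicate 3 averaged 39.6% with 2.24%. The part of this difference in the comparisons with other weak regions was not tested.

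Recurrent weak regions lay mainly away from promoters, in introns and between genes. Promoters, taken as 500 bp to either side of the start of any transcript, held 1253 of 6635 summits (18.9%, Wilson 95% interval 18.0 to 19.8), against 1716 of 5303 in IDR peaks (32.4%, 31.1 to 33.6). The difference of -13.5 percentage points had an interval of -15.0 to -11.9 and passed (adjusted p = 4.41e-63, Fisher's exact test). Intergenic sequence held 27.5% of recurrent weak summits and 19.6% of IDR summits (adjusted p = 3.58e-23, Fisher's exact test), and introns held 50.6% and 46.3% (adjusted p = 6.84e-06, Fisher's exact test). The 3' UTRs held 80 recurrent weak summits (1.21%) and 29 IDR summits (0.547%, adjusted p = 2.12e-04, Fisher's exact test). The 5' UTRs held 56 (0.844%) and 23 (0.434%), with an adjusted p of 0.00742 by the same exact test. Noncoding exons did not pass, at 0.995% and 0.717% (adjusted p = 0.113, Fisher's exact test), with an interval of -0.0615 to 0.610 points for the difference. Regions are not replicates, so these p-values cover counting error over regions taken as independent.

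**Figure D2:**
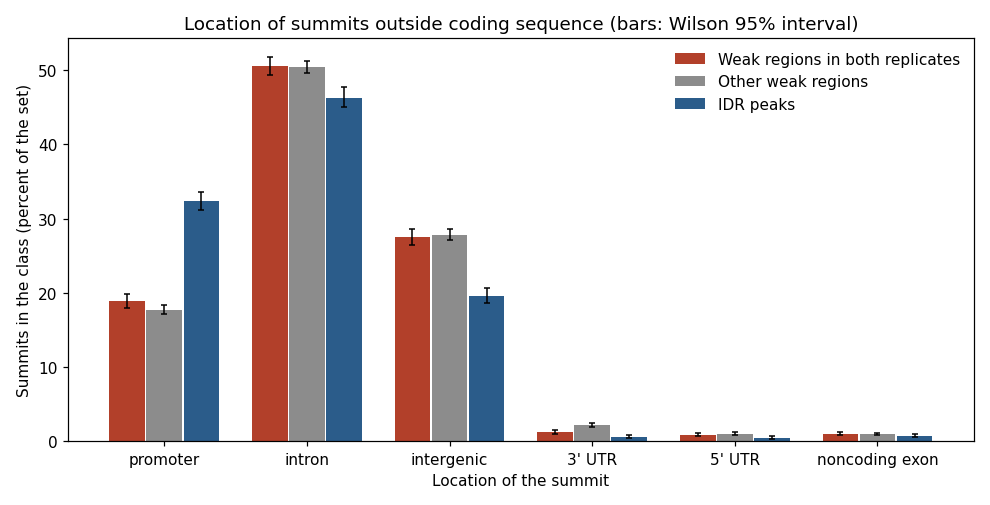
Share of summits (y axis, percent of the set) in each location class (x axis) for recurrent weak regions, other weak regions and IDR peaks outside CDS, with Wilson 95% intervals as error bars. Recurrent weak regions have 18.9% of summits in promoters and IDR peaks have 32.4%, while the shares of recurrent and other weak regions are close in most classes.

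Against other weak regions taken whole, the 3' UTR class alone of 6 differed. It held 1.21% of recurrent weak summits and 2.15% of the others (adjusted p = 9.63e-06, Fisher's exact test). Promoters held 18.9% and 17.7% (adjusted p = 0.120, Fisher's exact test), introns 50.6% and 50.5%, and intergenic sequence 27.5% and 27.8%. With only a replicate 2 summit required (replicate 3 left out), the 3' UTR difference was 0.0455 points (adjusted p = 0.834, Fisher's exact test). With only a replicate 3 summit required, the promoter difference was 2.88 points (adjusted p = 5.93e-07, Fisher's exact test). The intron difference passed in opposite directions in these settings, at 2.15 points with a replicate 2 summit alone required (adjusted p = 0.0136, Fisher's exact test) and -2.03 points with a replicate 3 summit alone required (adjusted p = 0.0101, Fisher's exact test). The 2 sets differ in signal, however, and at like signal the promoter share turned round. Between a pooled signal of 40 and 60, a band chosen after the values were seen, promoters held 16.1% of 2830 recurrent weak summits and 21.1% of 3788 others. That difference of -5.04 points passed (adjusted p = 1.19e-06, Fisher's exact test). Intergenic sequence in the band held 30.4% and 25.7% (adjusted p = 9.27e-05, Fisher's exact test), and the 3' UTR call was lost (1.34% and 1.61%, adjusted p = 0.598, Fisher's exact test). Even within the band the median signal was 49.2 in recurrent weak regions and 45.3 in the others.

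Promoter share followed signal inside the set. In 5 equal bins of pooled signal, from the weakest to the strongest bin of the recurrent weak regions (1327 regions each) it was 13.5%, 15.0%, 19.1%, 22.2% and 24.6%. The weakest bin of IDR peaks stood at 29.6% (interval 27.0 to 32.4), above the strongest bin of recurrent weak regions, whose interval was 22.4 to 27.0. GC content ran the other way, at 43.9%, 42.6%, 40.5%, 38.7% and 36.6% from the weakest to the strongest bin, and the weakest bin of IDR peaks followed at 35.7%. Signal had chosen the bins, and these values are given without a test.

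**Figure D3:**
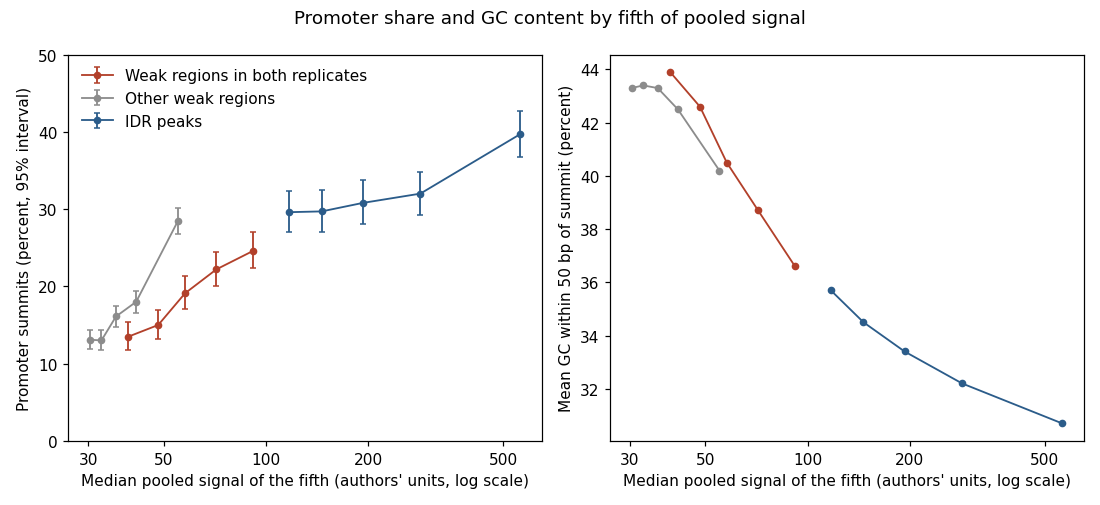
Promoter share with its Wilson 95% interval (left, percent) and mean GC content within 50 bp of the summit (right, percent) by bin of pooled signal (5 equal bins per set), each placed at the bin's median signal on a log axis, for recurrent weak regions, other weak regions and IDR peaks. In recurrent weak regions the promoter share goes from 13.5% to 24.6% and GC content from 43.9% to 36.6% from the weakest to the strongest bin, and at like signal the promoter share of other weak regions lies higher.

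Where a recurrent weak region did lie in a promoter, its summit was less often upstream of the start site. Of the 1253 promoter summits, 768 were upstream (61.3%, interval 58.6 to 64.0), against 1364 of 1716 in IDR peaks (79.5%, 77.5 to 81.3). The difference was -18.2 points (interval -21.5 to -14.9, p = 3.09e-27, Fisher's exact test). The median position was -68 bp relative to the start site, with quartiles at -213 and 92 bp, against -134 bp with quartiles at -245 and -34 bp in IDR peaks. Protein-coding starts on both strands lay within reach of 9.66% of recurrent weak promoter summits and 27.8% of IDR promoter summits, and only noncoding starts did so for 14.2% and 9.79%. Other weak regions resembled the recurrent ones in the upstream share, at 59.3%.

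Intron summits lay in long introns in every set. The intron holding a recurrent weak summit had a median length of 12286 bp, against 11999 bp for other weak regions and 11499 bp for IDR peaks. It was a first intron for 1893 of 3357 summits (56.4%, interval 54.7 to 58.1), against 53.7% for other weak regions and 66.4% (64.6 to 68.3) for IDR peaks. Introns of kirre, which encodes an immunoglobulin-superfamily adhesion protein of myoblast fusion, held the most, with 24 recurrent weak summits beside 23 IDR summits. Introns of SKIP held 21 and 11, and introns of hth, a homeodomain cofactor gene of Hox proteins, held 20 and 7. Rbp6, an RNA-binding protein gene, had 13 recurrent weak summits in its introns and 0 IDR summits. Introns of these genes also held other weak summits, 45 in kirre, 36 in SKIP, 33 in hth and 28 in Rbp6. Over all introns there were 3357 recurrent weak, 7013 other weak and 2456 IDR summits. The counts per gene were not divided by intron length.

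Recurrent weak regions were mostly far from each other, yet some lay beside strong peaks. The median gap between neighbours was 8488 bp, and 7.77% of gaps were at most 1000 bp, against 15.2% among other weak regions and 14.6% among IDR peaks. Runs of 3 or more at such spacing numbered 42, the longest with 4 regions. Gaps within a set also depend on its number of regions, here 6635 recurrent weak, 13889 other weak and 5303 IDR, and were not adjusted for it. An IDR summit lay within 1 kb of 652 (9.83%, interval 9.13 to 10.6), against 872 of 13889 other weak regions (6.28%, 5.89 to 6.69). The difference of 3.55 points passed (interval 2.74 to 4.39, p = 8.01e-19, Fisher's exact test), but in the band of like signal it was lost, at 7.49% and 7.97% (adjusted p = 0.486, Fisher's exact test). The median distance to an IDR summit was 6559 bp, and 38.7% of recurrent weak regions were over 10 kb from any, against 46.6% of other weak regions. Annotated transposable elements held 16 recurrent weak summits (0.241%), against 0.497% of other weak summits and 0.151% of IDR summits. Of the recurrent weak windows, 6.62% were mostly soft-masked repeat sequence, against 5.83% in other weak regions and 10.6% in IDR peaks.

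Across the chromosome arms, recurrent weak regions were spread at 45.0 to 52.8 per Mb on 2L, 2R, 3L, 3R and X. The small chromosome 4 had 7, or 5.19 per Mb, against 5 IDR peaks, or 3.71 per Mb. Arm 3R held 24.2% of them and 21.9% of IDR peaks (adjusted p = 0.0167, Fisher's exact test), the single arm of 6 to differ from IDR peaks. The X held 17.8% and other weak regions 15.4% (adjusted p = 9.62e-05, Fisher's exact test), a call lost in the band of like signal (17.0% and 15.1%, adjusted p = 0.212, Fisher's exact test). No arm differed from other weak regions with replicate 3 left out.

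A shallow dip in GC content was centred on the recurrent weak summits. GC content within 50 bp averaged 40.5% ± 9.84 (SD, 6635 regions), against 42.5% ± 9.33 in other weak regions and 33.3% ± 8.31 in IDR peaks. In windows of 51 bp it was 40.3% at the summit and 44.0% at 250 bp on either side, whereas other weak regions stayed at 42.6% at the summit and 43.1% at 250 bp on either side. In IDR peaks the same windows had 32.9% at the summit, with 45.5% and 45.8% at 250 bp. In each set the windows at 250 bp were above those farther out. At -600 and 600 bp recurrent weak regions had 41.2% and 41.0%, other weak regions 41.2% and 41.3%, and IDR peaks 42.9% and 42.8%. The flanks used next and in the motif tests lie at 250 bp. Regions differed widely among themselves: 57.3% of recurrent weak summits had a lower GC content than their own flank, against 49.4% of other weak regions and 81.6% of IDR peaks. In the band of like signal the order of the weak sets turned, with 42.5% ± 9.62 in recurrent weak regions and 41.7% ± 9.62 in the others. It turned as well with replicate 3 left out, where the mean difference was 0.205 points, against -2.07 with both replicates required.

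**Figure D4:**
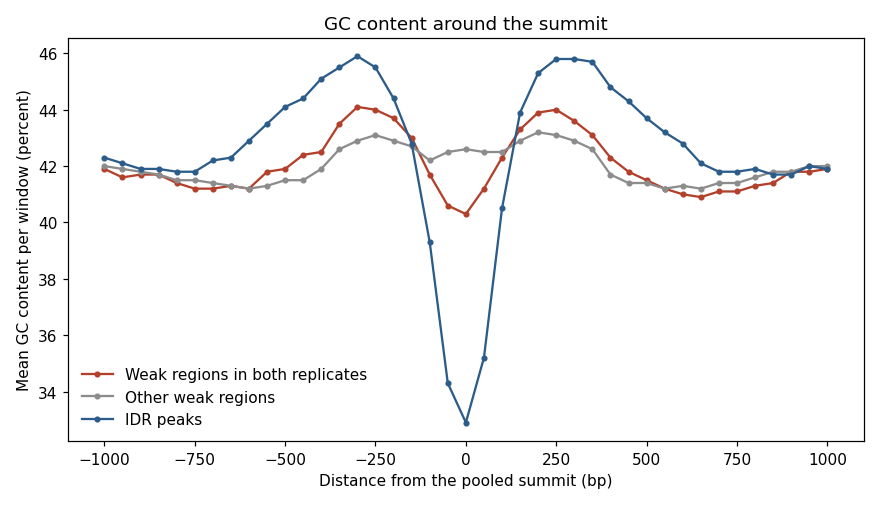
Mean GC content (y axis, percent) of 51-bp windows at each distance from the pooled summit (x axis, bp) for recurrent weak regions, other weak regions and IDR peaks. The dip of recurrent weak regions reaches 40.3% at the summit, that of IDR peaks 32.9%, and other weak regions show little dip at 42.6%.

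Forkhead core matches were slightly more frequent at recurrent weak summits than 250 bp away, and so was their scrambled control. TAAACA was found on either strand in 721 of 6635 summit windows (10.9%) and 586 flank windows (8.83%), with an adjusted p of 5.91e-04 by the exact McNemar test. ATACAA, the same letters in another order, was in 9.39% and 6.84% (adjusted p = 1.50e-06, exact McNemar). The longer site GTAAACA, which contains the core, was in 178 summit windows (2.68%) and 128 flanks (1.93%), with an adjusted p of 0.0173 by the exact McNemar test. A run of 7 A was in 11.2% and 9.62% (adjusted p = 0.0117, exact McNemar). GACGC, an alternate forkhead site, was less frequent at summits, in 6.83% and 9.34% (adjusted p = 1.50e-06, exact McNemar). The other 15 of 20 motifs did not pass against flanks, among them GATAAG (4.99% and 4.55%), TAATTA (6.53% and 5.79%), GAGAG (13.2% and 13.6%) and ATAAACA (4.24% and 3.59%). GC content differed between summits and flanks, and with both windows held to 30 to 40% GC, which left 560 pairs, none of the 20 passed by the exact McNemar test. TAAACA was then in 14.1% of summits and 15.2% of flanks and GACGC in 4.82% and 5.18%. The run of 7 A, at 19.1% and 14.6%, and GTAAACA, at 4.64% and 3.75%, differed by at least as many points as over all regions, and their calls were lost with 560 pairs in place of 6635. With replicate 3 left out, the excess over flanks over all GC contents was 1.18 points for TAAACA (adjusted p = 0.0119, exact McNemar) and 1.24 points for ATACAA (adjusted p = 0.00342, exact McNemar), against 2.03 and 2.55 points with both replicates required. The deficit of GACGC was then -1.60 points, against -2.52.

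Compared with IDR peaks, recurrent weak regions held 6 of the 20 motifs more often and 4 less often. CACACA was in 10.9% of recurrent weak windows and 6.26% of IDR windows (adjusted p = 2.70e-18, Fisher's exact test). The E-box CAGCTG was in 4.46% and 2.38% (adjusted p = 2.44e-09, Fisher's exact test), and GACGC in 6.83% and 4.17% (adjusted p = 1.66e-09, Fisher's exact test). GAGAG, the site of GAGA factor, was in 13.2% and 10.1% (adjusted p = 7.95e-07, Fisher's exact test). CACGTG (1.09% and 0.585%) and GTCAACA, a forkhead site variant (1.46% and 0.905%), passed as well. TAATTA was lower, at 6.53% and 9.88% (adjusted p = 2.59e-10, Fisher's exact test), as were TAAACA (10.9% and 12.7%), ATACAA (9.39% and 12.9%) and the run of 7 A (11.2% and 14.4%). Within 30 to 40% GC, CACACA alone differed, at 8.95% of 2201 recurrent weak windows and 5.98% of 2241 IDR windows (adjusted p = 0.00392, Fisher's exact test). TAAACA was there at 12.7% and 12.2%, and GTAAACA at 3.41% and 2.19% (adjusted p = 0.0696, Fisher's exact test). GTCAACA lost its call there, at 1.68% and 0.803% (adjusted p = 0.0633, Fisher's exact test), although its difference of 0.878 points was larger than the 0.557 over all windows. The run of 7 A turned round, at 15.5% and 12.8% (adjusted p = 0.0633, Fisher's exact test).

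Against other weak regions the motif shares were close. ATACAA was in 9.39% and 7.94% (adjusted p = 0.0104, Fisher's exact test) and GACGC in 6.83% and 7.95% (adjusted p = 0.0442, Fisher's exact test). TAAACA did not pass, at 10.9% and 9.78% (adjusted p = 0.110, Fisher's exact test), with an interval of 0.204 to 2.00 points. In the band of like signal it turned round, at 9.36% and 11.2% (adjusted p = 0.364, Fisher's exact test). With replicate 3 left out, the ATACAA difference was 0.253 points (adjusted p = 0.763, Fisher's exact test) and that of GACGC 0.136 points (adjusted p = 0.852, Fisher's exact test), so both calls were lost. With replicate 2 left out, TAAACA passed, with a difference of 1.57 points (adjusted p = 0.00219, Fisher's exact test). None of the 20 passed by Fisher's exact test either within 30 to 40% GC or in the band of like signal. A match is a description of letters in the window and does not show that a factor was bound.

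The 20 recurrent weak regions of highest pooled signal all reached 106 to the precision given, at the edge of the IDR list. Of these, 6 lay in promoters, 11 in introns and 3 between genes, and 6 had no protein-coding start site within 10 kb. The first (3R, 21224368 to 21224791, dm6) lay in an intron of Nelf-A, which encodes a subunit of the negative elongation factor that pauses RNA polymerase. It had a signal of 53.7 in replicate 2 and 56.3 in replicate 3, and its summit was 9 bp from the start of the noncoding lncRNA:CR44265. The second, in Svil, a homologue of the actin-binding supervillin, had 38.6 and 67.8. The third, in tna, which encodes an SP-RING protein that acts with Brahma chromatin remodelling complexes, had 69.0 in replicate 2 and 35.9 in replicate 3. Replicates thus differed even at the top, with a ratio of replicate 2 to replicate 3 between 0.257 and 2.97 among the 20 and a median of 0.936.

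The lowest ratio of the 20 was at the promoter of Edem1, a gene of misfolded glycoprotein disposal, with 20.7 in replicate 2 and 80.6 in replicate 3. The highest was at the CG4004 promoter, with 48.2 and 16.2. Each replicate signal is that of the listed summit nearest to the pooled one. The lower value came from a summit 82 bp away at Edem1 and 62 bp away at CG4004. Near Notum, which encodes a secreted enzyme that inactivates Wnt proteins, the signal was 59.6 in replicate 2 and 50.4 in replicate 3, with the summit at -2035 bp relative to its start site. An intron summit in tutl, an immunoglobulin-superfamily gene, had 41.4 and 61.2, and one in Shrm, the Shroom gene of apical constriction, had 53.4 and 51.8. Other genes assigned to the 20 were tun, CG15343, CG10384, CG4733, Kank and CG43658. Summits without an assigned gene lay in introns of CG45263, stx, mamo and mub and between genes on 2L and 3L.

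Of the 6635 recurrent weak regions, 5051 could be given to a protein-coding gene, the one whose start site was nearest and within 10 kb, and 1584 (23.9%) had none that near. Over all 13968 protein-coding genes, 3002 (21.5%) had at least 1, and 1866 of those had exactly 1. An IDR peak was assigned to 2630 genes (18.8%). The 2 groups shared 1241 genes, which were 41.3% of the genes with a recurrent weak region and 47.2% of the genes with an IDR peak. The remaining 1761 genes (12.6% of all) had a recurrent weak region and no IDR peak. Of the assigned regions, 2630 of 5051 (52.1%) were at a gene that also had an IDR peak. The tagged gene fd59A itself (2R, 22868159 to 22870706, dm6, plus strand) had 0 recurrent weak regions and 1 IDR peak. The nearest recurrent weak summit, with a pooled signal of 98.2, lay 2003 bp past the gene and was assigned to its neighbour CG13532.

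CG43658 on the X had the most recurrent weak regions of any gene, 13, beside 14 IDR peaks. Next were tna with 12, bbg, which encodes a PDZ-domain protein, with 11, and tara, a gene linked to the trithorax group, also with 11. The pair-rule repressor gene hry had 10 recurrent weak regions and 2 IDR peaks. Egfrap, InR, which encodes the insulin receptor, br, tou and ush, which encodes a GATA cofactor, had 9 each. Their IDR counts were 1 for Egfrap, 2 for InR, 0 for br, 10 for tou and 7 for ush. Other weak regions were about as numerous at the 10 genes, from 7 at Egfrap and tou to 16 at CG43658. All 10 genes have much sequence that lies nearest to their own start sites within 10 kb, from 20196 bp at hry to 85640 bp at CG43658, against a median of 4336 bp over all genes. This length is called the territory of a gene below.

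The ecdysone early gene br, which encodes the Broad zinc-finger factors of the larval to pupal transition, had 9 recurrent weak regions and no IDR peak. It also had 11 other weak regions. Pooled signal of the 9 was 51.8 to 102 with a median of 66.3. In replicate 2 the 9 had 22.0 to 56.6 with a median of 33.5, and in replicate 3 they had 19.5 to 48.9 with a median of 30.7, so the ranges overlapped widely. The strongest (X, 1613080 to 1613503, dm6) had 51.0 in replicate 2 and 44.3 in replicate 3 and lay at -365 bp relative to a br start site. Its neighbour, at -118 bp, had 38.6 and 19.5. The nearest IDR summits were 87260 to 130297 bp away. All 9 also fell within an intron of Mur2B, an annotated gene that spans this stretch.

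Other genes of the ecdysone cascade, the steroid response that drives metamorphosis, had recurrent weak regions too, in 17 of 19 listed genes (89.5%), against 21.5% of all genes. The median was 2.00 per listed gene and 0 over all genes. Territories differ, with a median of 19711 bp in the list, and per Mb of territory the list had 104 recurrent weak regions, against 53.6 over all genes. Other weak regions were dense there too, at 197 per Mb against 111, as were IDR peaks, at 88.8 against 47.2. In the same list 12 of 19 (63.2%) had an IDR peak, against 18.8% of all genes. The nuclear receptor gene ftz-f1, the competence factor of prepupae, had 4 recurrent weak regions, the strongest in its 5' UTR with 47.0 in replicate 2 and 49.5 in replicate 3. The receptor gene EcR had 5, the strongest at a promoter with 77.0 and 21.6, where replicate 2 was far higher. At Eip93F, a late prepupal factor gene, the strongest of 4 had 50.5 and 42.6. Eip75B had 6, its strongest 38 bp from a start site with a pooled signal of 83.2. Hr38, a nuclear receptor gene, had 1, with 44.1 in replicate 2 and 55.3 in replicate 3. With a recurrent weak region and no IDR peak were br, Hr38, Hr39, Eip78C, ImpE1 and ImpE3.

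Hox genes, which set segment identity along the body axis, had recurrent weak regions in 6 of 8, with a median of 1.00 per gene. Over all genes, 21.5% had a recurrent weak region and the median was 0. Their median territory was 19870 bp, and per Mb of territory they had 45.6, against 53.6 over all genes. Antp had 3, lab and abd-A had 2 each, and Abd-B, Scr and Ubx had 1 each, while pb and Dfd had 0. The strongest was in the lab intron, with 33.1 in replicate 2 and 50.4 in replicate 3, and the one at the abd-A promoter, 33 bp from the start, had 29.6 and 37.3. The weakest of the named Hox summits, in a Ubx intron, had 29.0 and 14.3. IDR peaks were assigned to 2 of the 8, Antp, with 2, and Abd-B, with 1, against 18.8% of all genes. Per Mb of territory the Hox genes had 13.7 IDR peaks, against 47.2 over all genes. Other weak regions were denser there than over all genes, at 164 per Mb against 111.

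None of the 12 genes of octopamine and tyramine synthesis, transport and reception had an IDR peak, and 5 had a recurrent weak region (41.7%). Over all genes, 18.8% had an IDR peak and 21.5% had a recurrent weak region. Per Mb the list had 43.7, against 53.6 over all genes. The receptor gene Oamb had the strongest, at -4900 bp relative to its start site, with 47.7 in replicate 2 and 51.0 in replicate 3. At Octbeta1R, another octopamine receptor gene, an intron summit had 28.5 and 40.7. Tbh, which encodes the enzyme that makes octopamine from tyramine, had 4, the strongest at -218 bp relative to its start site with 28.7 in replicate 2 and 37.4 in replicate 3. The transporter gene Vmat (29.8 and 17.2) and the tyramine receptor gene TyrRII (21.2 and 19.5) had 1 each. Tdc1, Tdc2, TyrR, Oct-TyrR, Octalpha2R, Octbeta2R and Octbeta3R had 0.

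**Figure D5:**
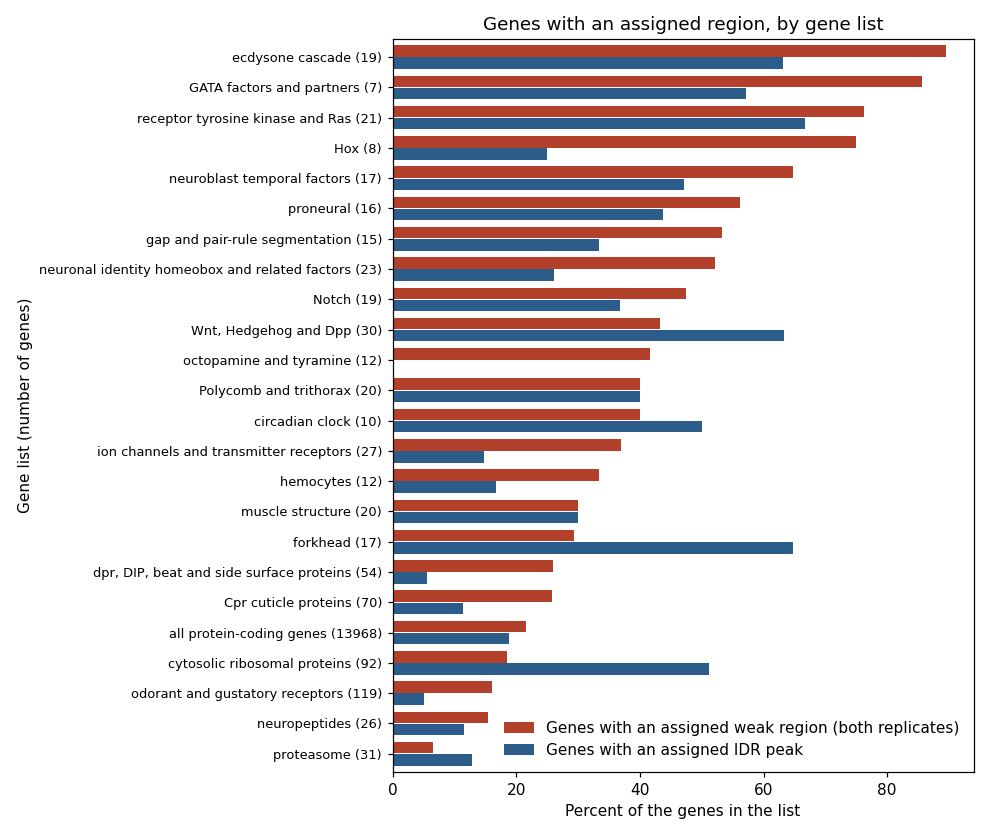
Percent of genes (x axis) in each gene list (y axis, with the number of genes) that have an assigned recurrent weak region, upper bar, or an assigned IDR peak, lower bar. Over all 13968 protein-coding genes the shares are 21.5% and 18.8%, and no bar accounts for gene length.

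Lists of signalling genes are to be read against 21.5% of all genes with a recurrent weak region and 53.6 such regions per Mb of territory. Receptor tyrosine kinase and Ras genes had one in 16 of 21 (137 per Mb), led by bnl, an FGF ligand gene (pooled signal 101), Egfr, the EGF receptor gene (101), and sty, an inhibitor of the pathway (100). At bnl, which had no IDR peak, the summit at -158 bp had 50.4 in replicate 2 and 53.2 in replicate 3. Wnt, Hedgehog and Dpp genes had one in 13 of 30 (84.9 per Mb), led by the ligand gene Wnt2 (102), en (95.1) and Dad, an inhibitory Smad gene (85.5). An IDR peak was assigned to 19 of those 30 (63.3%), against 18.8% of all genes. Notch pathway genes had a recurrent weak region in 9 of 19 (104 per Mb), led by Nak (96.5), mib1, which encodes a ubiquitin ligase for Notch ligands (81.4), and the ligand gene Ser (73.1). The listed symbol Dl was not matched to a gene, so Dl is not among the 19. Other weak regions were also dense at the genes of these lists, with 205, 152 and 132 per Mb in the same order, against 111 per Mb over all genes. So were IDR peaks, with 142, 154 and 139 per Mb, against 47.2. An IDR peak was assigned to 14 of 21 receptor tyrosine kinase and Ras genes (66.7%) and to 7 of 19 Notch pathway genes (36.8%).

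Lists of transcription factors of patterning and neurons are likewise to be read against 21.5% of all genes and 53.6 per Mb. GATA factor and partner genes had a recurrent weak region in 6 of 7 (141 per Mb), led by GATAe (pooled signal 104), ush (87.1) and grn (75.2). GATAe, a gut GATA factor gene with no IDR peak, had 62.7 in replicate 2 and 37.8 in replicate 3. The proneural list, which also holds other genes of neural development, had one in 9 of 16 (96.8 per Mb), led by brat (101), the bHLH gene ac (99.1) and nerfin-1 (94.5). Neuroblast temporal factors had one in 11 of 17 (85.7 per Mb), led by the nuclear receptor gene svp (104), the RNA-binding protein gene Imp (104) and br (102). At Imp the replicates differed, with 27.3 in replicate 2 and 70.2 in replicate 3. Segmentation genes had one in 8 of 15 (76.2 per Mb), led by en (95.1), hry (93.5) and odd (91.6). Neuronal identity factors had one in 12 of 23, but at 60.7 per Mb they were close to all genes; the strongest were at Lim1 (102), the POU factor gene vvl (97.1) and Awh (84.7). Other weak regions had 119 to 227 per Mb in these 5 lists, against 111 per Mb over all genes. For IDR peaks the values were 21.8 (neuronal identity) to 102 (GATA), against 47.2 over all genes.

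Forkhead genes had a recurrent weak region in 5 of 17 listed (slp2, FoxK, fkh, CHES-1-like and foxo), at 49.9 per Mb against 53.6 over all genes. All 5 also had an IDR peak, as did 11 of 17 in all. The shares were 29.4% with a recurrent weak region and 64.7% with an IDR peak, against 21.5% and 18.8% of all genes. The strongest recurrent weak region, 7491 bp from slp2, had 50.5 in replicate 2 and 49.4 in replicate 3, and the one at the FoxK promoter had 22.1 and 71.9. The strongest at fkh had a pooled signal of 69.0.

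Among the remaining lists with a share above 21.5%, 3 were denser per Mb than all genes (53.6). Polycomb and trithorax genes had a recurrent weak region in 8 of 20 (85.7 per Mb), led by osa, a Brahma complex gene (pooled signal 101), ph-p, a Polycomb complex gene (90.4), and Trl, the GAGA factor gene (84.8), which shares its start site with CG42507. Circadian clock genes had one in 4 of 10 (79.9 per Mb), with vri (104), the kinase gene sgg (104) and Pdp1 (103). Cuticle genes of the Cpr family had one in 18 of 70 (25.7%, 82.3 per Mb). An IDR peak was assigned to 8 of these 70 (11.4%), against 18.8% of all genes. Their strongest recurrent weak regions were at Cpr12A (103), Cpr97Ea (100) and Cpr35B (93.0), and Cpr35B had 26.5 in replicate 2 and 61.1 in replicate 3. Other weak regions had 113, 165 and 106 per Mb in these 3 lists, in the same order, against 111 over all genes. For IDR peaks the values were 166, 79.9 and 29.4, against 47.2.

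Another 4 lists above 21.5% were less dense per Mb than all genes. Hemocyte genes had a recurrent weak region in 4 of 12 (47.2 per Mb), led by the scavenger receptor gene crq (pooled signal 79.2), the collagen gene vkg (70.3) and srp (41.9). Muscle structure genes had one in 6 of 20 (42.3 per Mb), led by Act87E (97.5), Zasp52 (94.5) and Mef2 (85.6). Ion channel and transmitter receptor genes had one in 10 of 27 (37.0%, 35.9 per Mb), led by the potassium channel gene Shal (87.0), nAChRalpha1 (78.0) and mAChR-A (64.2). The dpr, DIP, beat and side genes, which encode surface proteins of neuronal recognition, had one in 14 of 54 (25.9%, 27.8 per Mb), led by beat-IIIc (88.6), beat-IIa (67.1) and DIP-alpha (66.3).

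In 4 lists the share was below the 21.5% over all genes. Genes with a ribosomal protein symbol had a recurrent weak region in 17 of 92 (18.5%, 55.4 per Mb). An IDR peak was assigned to 47 of these 92 (51.1%), against 18.8% of all genes. Their strongest recurrent weak regions were at RpS23 (pooled signal 104), RpL39 (104) and RpL10Aa (96.9). Odorant and gustatory receptor genes had one in 19 of 119 (16.0%, 35.2 per Mb), led by Gr93a, with 37.1 in replicate 2 and 67.9 in replicate 3, then Gr93d (pooled signal 92.5) and Or67c (89.9). Neuropeptide genes had one in 4 of 26 (15.4%, 44.2 per Mb), led by the bursicon subunit gene Pburs (97.9), Nplp1 (63.7) and the proctolin gene Proc (56.7). Proteasome genes had one in 2 of 31 (6.45%, 41.1 per Mb), at Rpn9 (102) and Prosbeta2 (73.0). These counts describe the lists, and no list was tested.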

How the data were processed

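Chromatin immunoprecipitated with an anti-GFP antibody was sequenced from 2 biological replicates of 1 fly line, which the labels tie to separate biosamples. The authors deposited lists of regions in the narrowPeak format, called on each replicate and on the pooled reads, and a list kept after the IDR step, per the file headers and descriptions. Column 7 is the authors' signal for each region, a peak height whose scaling is not stated. Column 9 is −log10 q as deposited, and column 10 is the deposited summit offset in bp. For the caller, its version and the IDR threshold, nothing is stated: not given in the sources used here. Chromatin was sheared to 200 to 800 bp, per the labels. The lists hold no read counts, so depth is unknown, and no interval for signal is given.

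Replicate summits within 100 bp of a pooled summit were matched, in build dm6. Locations came from Ensembl release 115 gene models, in the order promoter, 5' UTR, 3' UTR, CDS, intron, noncoding exon and intergenic. GC content and 20 motifs, on both strands, were read in 101 bases centred on the summit and in a flank 250 bp to a seeded side. Each region went to the protein-coding gene or tied genes with the nearest start site within 10 kb. Counts of regions were compared by 2-sided Fisher's exact tests, or the exact McNemar test against flanks, with Benjamini-Hochberg adjustment within each family (6 classes, 6 arms or 20 motifs) and a threshold of 0.05. Intervals are 95% Wilson or Newcombe intervals and cover counting error only. Values used to choose the regions were not tested. The matching, the motif search and the tests were tested on simulated data. Python 3.11.15, numpy 2.4.6, scipy 1.17.1 and pandas 2.3.3 were used.

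The regions and the gene lists were chosen with earlier results of these data known. Named genes are fd59A, those of the 20 strongest regions, the 10 genes with most regions, the 3 genes of each list with the strongest region, and every Hox, octopamine or tyramine gene; other named genes, including intron hosts and further ecdysone and forkhead genes, were chosen after their values were seen. Of 354 listed symbols, 7 were matched through another name and 2, Dl and Shaker, were not matched. Alternatives changed the match distance, the promoter and gene distances, the window, the CDS filter, the GC band, the signal band and the replicate required.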

Additional observations from a re-analysis of the deposited data

How the results depend on the processing

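The deficit of promoter summits against IDR peaks and the lower upstream share kept their direction and call in the 10 alternatives in which they were computed, which do not include the GC and signal bands. With 1 replicate left out at a time, the recurrent weak regions numbered 11549 to 12909 and the genes 4319 to 4551. Against IDR peaks, 2 arms differed in both cases and the GC difference was 7.52 to 8.65 points. Against other weak regions these settings gave 1 to 3 classes, 0 to 1 arms, 0 to 7 motifs, a promoter difference of -0.935 to 2.88 points and a GC difference of -2.80 to 0.205 points. In the same settings the 3' UTR difference was -1.29 to 0.0455 and that of GACGC -1.20 to 0.136, both reversed without replicate 3, and that of introns -2.03 to 2.15, reversed without replicate 2 and past the threshold in both directions. A 50 bp match gave 0 arms against IDR peaks, 2 motifs against flanks and, against other weak regions, 2 arms, 0 motifs and a GC difference of -1.62. A 200 bp match gave, against other weak regions, 2 classes, 4 motifs and a promoter difference of 1.43. With CDS summits kept, the GC difference from IDR peaks was 7.83, and against other weak regions there were 5 classes, 5 motifs, a promoter difference of 1.32, a GC difference of -2.81 and an intergenic difference of 1.79, which reversed. Without regions within 1 kb of an IDR peak, 3 arms and 1 motif differed from other weak regions and 3 motifs from flanks, and the share within 1 kb could not be computed. Merging overlapping regions gave 2 arms against other weak regions. The stronger part by signal, 3317 regions at 1846 genes, gave 3 classes, 0 arms and a GC difference of 4.74 against IDR peaks. Against other weak regions it gave 3 classes, 3 arms, 7 motifs, a promoter difference of 4.91 and a GC difference of -4.49. Promoters of 1000 bp gave 2 classes and a promoter difference of 1.85 against other weak regions, and a 1 kb gene distance gave 1404 genes. At 30 to 40% GC, 1 motif differed from IDR peaks and 0 from other weak regions or flanks. There TAAACA (0.495), GACGC (-0.158), CACGTG (-0.0316) and AAAAAAA (2.78) reversed against IDR peaks, ATACAA (-0.359) against other weak regions and TAAACA (-1.07) against flanks, none of them past the threshold by exact tests. The signal band of 40 to 60, chosen after seeing the data, gave 2 classes, 0 arms and 0 motifs against other weak regions. In it the differences for promoters (-5.04), intergenic sequence (4.67), GC content (0.791), GACGC (0.162) and the share within 1 kb of an IDR peak (-0.481) reversed, and, among motifs that passed in neither case, so did those for TAAACA (-1.80), AAAAAAA (-1.62), GTAAACA (-0.590), CACACA (1.39) and others; the cause was not tested.

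No paired analysis was possible because both replicates belong to 1 group. With 2 replicates, no control library and unknown depth, whether a weak region reflects the tagged protein was not tested, and p-values take neighbouring regions as independent.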

Other observations

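In the lists on the older build dm3, where no CDS filter was applied, 19436 weak regions overlapped no IDR peak, and 6299 of them (32.4%) had summits in both replicates. On dm6 the share was 30.5%. Recurrent weak regions in the strongest of 5 equal signal bins were within 1 kb of an IDR summit in 13.0% of cases and those in the weakest bin in 6.63%, values given without a test.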
